A study of Saccharomyces cerevisiae with 14 samples.

Results

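Cleavage of yeast mRNA by MazF was compared between 3 libraries taken at 6, 7 and 8 h after the induction of meiosis and 3 libraries taken at 3, 3.5 and 4 h. Both windows came from wild-type diploid SK1 cells (MAT a/alpha), homozygous for lys2, for ho::LYS2 and for ndt80::LEU2. The growth condition given is YPD at 30 °C, and the sample labels name each library by its hour of sporulation. YPD is therefore not to be read as the medium at harvest. SK1 is a laboratory strain that sporulates quickly and in near synchrony. Because every library carries the ndt80 disruption, cells of the later window are held in pachytene and do not go on to the meiotic divisions. Of 14 samples in the series, 10 form this time course, and the other 4 are controls at 8 h (2 with ime4::HIS3 in both copies and 2 without it) that were not analysed here. The sites compared are those with at least 2 values in each window, 1 row per chromosome, start and strand. These are 731 of the 1184 distinct sites in the table, in 645 genes. Each hour had 1 library, so neighbouring hours stand in for replicates, and the labels do not say whether they came from 1 culture. The p-values below therefore set the difference between windows against the scatter between hours of a window, with any drift inside the window included. In the limma fits, that scatter is combined with a prior variance that follows the mean.

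N6-methyladenosine, or m6A, is a methyl mark on adenosines within mRNA. In budding yeast it is placed during meiosis by a complex built around the methyltransferase Ime4 with Mum2, Slz1, Kar4 and Vir1, and it is read by the YTH-domain protein Pho92. MazF is a bacterial endonuclease that cuts RNA before the triplet ACA unless its first A is methylated. Cleavage efficiency is a fraction per site and library: a site at 1 is read as fully cut, and methylation of a site lowers it. Ndt80 is the transcription factor that turns on the middle sporulation genes and lets cells leave pachytene. Pachytene is the stage of meiotic prophase in which homologous chromosomes are fully paired.

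No site passed the test between the windows. Among the 731 sites, 0 were lower at 6-8 h (0%) and 0 were higher (0%) at an adjusted p under 0.05 (limma on the untransformed fraction, Benjamini-Hochberg over all tested sites), and the lowest adjusted p was 0.563. At an unadjusted p under 0.05 there were 36 lower sites (4.92% of those tested) and 14 higher ones (1.92%). That split varied with the libraries used, and leaving a library out also changed the sites tested. It was 24 lower and 25 higher once the libraries were shifted to the same median. Without the 6 h library it was 28 and 24, and without the 3 h library 21 and 25. It was 43 lower and 9 higher without the 8 h library, and 27 and 11 without the 7 h library. Without the 3.5 h library it was 16 and 5, and without the 4 h library 23 and 7. The difference between window means, 6-8 h minus 3-4 h, had a median of -0.00987 over the sites. The middle 50% of sites lay between -0.0513 and 0.0246, and the extremes were -0.376 and 0.290. The difference was negative at 421 sites (57.6%) and positive at 309. The median standard error of a difference was 0.0510. The 95% interval of the difference lay wholly within 0.1 of zero at 161 sites (22.0%) and within 0.2 at 434 (59.4%). At the other sites the interval reached further, and differences of that size lay inside it. A difference beyond -0.1 was measured at 89 sites and one beyond 0.1 at 33.

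The level of the libraries as a whole was also close between the windows. Among the 508 sites measured in each of the 6 libraries, the median site was cut by 0.834, 0.858 and 0.869 at 6, 7 and 8 h, against 0.869, 0.856 and 0.867 at 3, 3.5 and 4 h. The 6 h library had the lowest median of the 6, and the 8 h library was level with the 3 h one, so the windows overlapped. The library medians averaged 0.854 ± 0.0178 at 6-8 h and 0.864 ± 0.00686 at 3-4 h (SD, n = 3 each), a difference of -0.0101 (two-sided exact permutation p = 0.7, where the smallest p possible is 0.1). The share of sites cut by less than 0.5 was 12.6%, 10.6% and 8.27% at 6, 7 and 8 h, against 7.48%, 10.2% and 9.65% at 3, 3.5 and 4 h. Its mean was 10.5% ± 2.17 at 6-8 h and 9.12% ± 1.45 at 3-4 h (SD, n = 3 each, exact permutation p = 0.4).

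**Figure D1:**
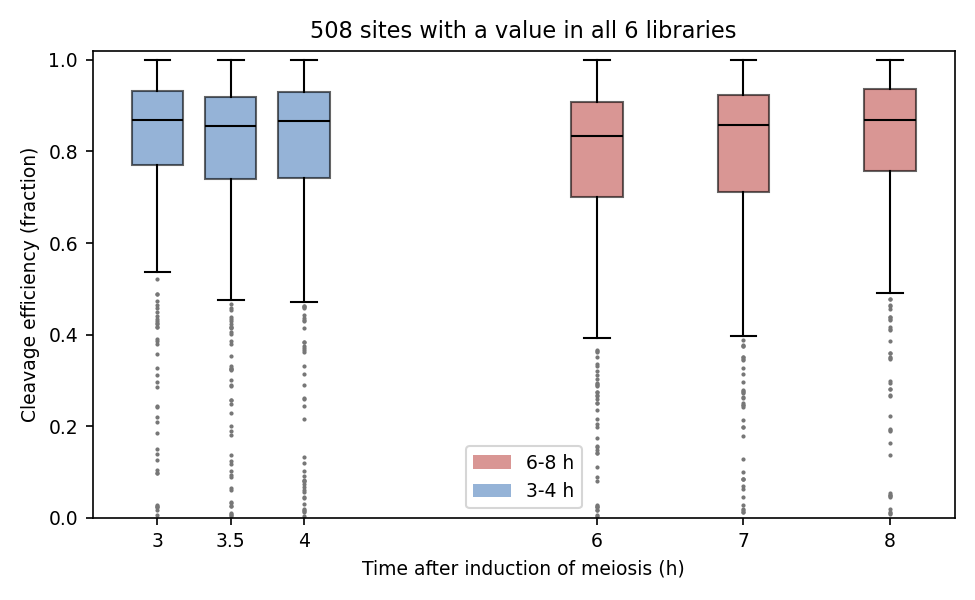
Cleavage efficiency (fraction, vertical axis) of the 508 sites measured in each of the 6 libraries, by hour after induction (horizontal axis). Boxes span the quartiles with the median as a line, whiskers reach 1.5 times the box and dots are single sites; the median is 0.834 at 6 h, the lowest, and 0.869 at both 8 h and 3 h.

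Within the later window, 8 h and 6 h lay further apart than the windows did. Of the 508 sites, 331 were cut more at 8 h than at 6 h and 167 less, with a median difference of 0.0307. The earlier window drifted too: 198 of these sites were cut more at 4 h than at 3 h, with a median of -0.0129 for 4 h minus 3 h. Between window means, the median over the same 508 sites was -0.00828. The gaps within windows are between single libraries, not means. Relative to each site's 3-4 h mean, the median site stood at -0.0177, -0.00460 and 0.00678 in the 6, 7 and 8 h libraries. Without the 6 h library, 275 of 574 sites (47.9%) had a negative difference and the median over sites was 0.00204. The small excess of lower sites was thus gone, but that fit needed values at both 7 and 8 h. Its sites therefore differed as well, and for this share the parts of library and sites were not told apart. The library medians rest on nearly the same number of sites with and without the 6 h library. Their difference was -0.0101 with it, on 508 sites, and -0.000251 without it, on 509. Over the whole table, values were present for 1054, 740 and 626 sites at 6, 7 and 8 h. At 3, 3.5 and 4 h they were present for 891, 1171 and 1132. The tested sites were chosen for at least 2 values in each window, which evens out these counts. Values were present for 722, 709 and 596 tested sites at 6, 7 and 8 h. At 3, 3.5 and 4 h they were present for 641, 730 and 725 tested sites. Values of exactly 1 made up 4.57%, 8.18% and 11.2% of these at 6, 7 and 8 h, against 7.02%, 5.07% and 7.17% at 3, 3.5 and 4 h. The part of missing values and of values of exactly 1 in the order of the hours was not tested. The 135 tested sites with no value at 8 h had a median difference of -0.0244, and the 596 with one had -0.00682. The table gives no read numbers, so depth is unknown and counting intervals are not given. Between 257 and 339 of the tested sites in a library shared a value below 1 with another site to all digits given.

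Earlier hours give the size of these differences a scale, though values were sparse at 0 h and 1 h. At 0, 1 and 2 h, 246, 475 and 659 tested sites had a value. Of these, 15.4%, 16% and 11.7% were exactly 1, and the part of such values in the step to 3-4 h was not tested. Among the tested sites, 482 also had at least 2 values at 0-2 h. Over the windows 0-2, 3-4 and 6-8 h their medians were 0.894, 0.873 and 0.852. The difference of 3-4 h minus 0-2 h was negative at 355 of these sites, with a median of -0.0270, and that of 6-8 h minus 3-4 h was negative at 283, with a median of -0.0114. The steps share the 3-4 h libraries, and whether they differ in size was not tested.

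**Figure D2:**
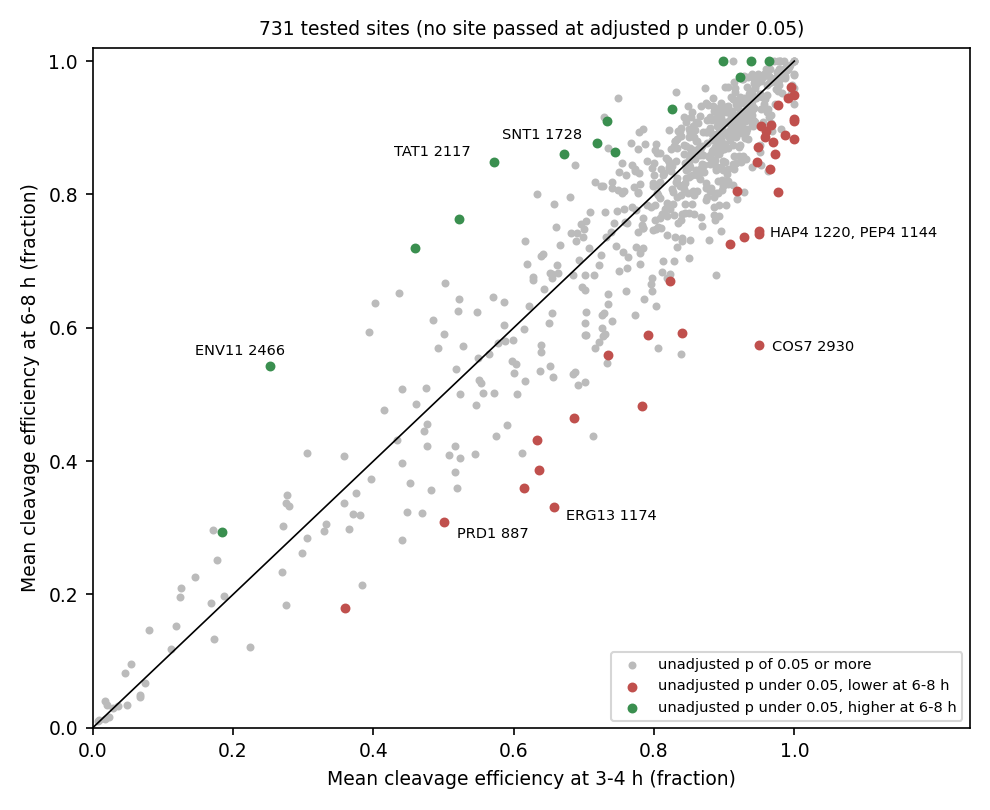
Mean cleavage efficiency at 6-8 h (vertical axis) against that at 3-4 h (horizontal axis) for the 731 tested sites, both fractions, with the line of equality. Coloured points are the 36 lower and 14 higher sites at an unadjusted p under 0.05; none passed after adjustment, and most sites lie close to the line at high cleavage.

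The sites with the smallest p among the lower ones are given here as values, since none passed. The smallest of all was in HAP4, which encodes the regulated subunit of the activator of respiratory genes (YKL109W, position 1220, chromosome 11, 235105, plus strand). Positions are the numbers in the deposited site identifiers, whose origin is unknown, as is the build behind the coordinates. It was cut by 0.786, 0.706 and 0.744 at 6, 7 and 8 h, against 0.947, 0.941 and 0.963 at 3, 3.5 and 4 h. The windows did not overlap, and the 5 h library, at 0.925, still stood with the earlier one. The difference was -0.205 ± 0.0392 (SE; limma, unadjusted p = 0.00111, adjusted p = 0.563). A second site in HAP4, 93 bases downstream at position 1313, was cut by 0.786, 0.707 and 0.709 at 6, 7 and 8 h, against 0.855, 0.885 and 0.779 at 3, 3.5 and 4 h. Its windows overlapped, as its 6 h value lay above its 4 h value. Its difference was -0.106 ± 0.0532 (limma, adjusted p = 0.726).

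In PEP4, the gene of the vacuolar proteinase A, the site at position 1144 (YPL154C, chromosome 16, 269299, minus strand) was cut by 0.855, 0.673 and 0.694 at 6, 7 and 8 h. At 3, 3.5 and 4 h its values were 0.944, 0.937 and 0.969, all above the later ones. It stood at 0.923 at 5 h and between 0.974 and 1.00 at 0, 1 and 2 h, and its difference was -0.210 ± 0.0560 (limma, adjusted p = 0.563). ERG13, which encodes HMG-CoA synthase of the sterol pathway (YML126C, position 1174, chromosome 13, 27340, minus strand), was cut by 0.395 and 0.267 at 6 and 7 h, with no value at 8 h. It was cut by 0.736, 0.675 and 0.561 at 3, 3.5 and 4 h and by 0.590 at 5 h, a difference of -0.326 ± 0.0854 (limma, adjusted p = 0.563). PRD1, a metalloendopeptidase gene (YCL057W, position 887, chromosome 3, 26572, plus strand), was cut by 0.366, 0.280 and 0.282 at 6, 7 and 8 h, against 0.550, 0.467 and 0.485 at 3, 3.5 and 4 h. Here the 5 h value, 0.286, already stood with the later window. The difference was -0.192 ± 0.0518 (limma, adjusted p = 0.563).

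The lowest difference of all tested sites was in COS7 (YDL248W, position 2930, chromosome 4, 5381), a member of a subtelomeric family of closely related genes whose reads may not be separable. It was cut by 0.586 and 0.563 at 6 and 7 h, against 1.00 and 0.90 at 3 and 3.5 h, with no value at 8 h or 4 h. Its difference, -0.376 ± 0.0742, thus rests on 4 values (limma, adjusted p = 0.563). The other sites of this group started from values at or near 1.00 in the earlier window and had smaller differences. STB2, named for binding to the Sin3 repressor, was cut by 0.838, 0.872 and 0.939 at 6, 7 and 8 h, against 1.00 in each of the 3 earlier libraries. AEP3, needed for the stability of a mitochondrial mRNA, was at 0.898, 0.944 and 0.898, against 1.00 at both 3.5 and 4 h. SCS7, a sphingolipid hydroxylase gene, was at 0.946, 0.960 and 0.940, against 1.00 at both 3 and 4 h. FKH1, which encodes a forkhead transcription factor, was at 0.933 and 0.888 at 6 and 7 h, against 1.00 at 3.5 and 4 h. YTH1, of the mRNA 3′-end cleavage and polyadenylation factor, was at 0.874 and 0.733 at 6 and 7 h, against 1.00, 1.00 and 0.930 at 3, 3.5 and 4 h. The unnamed gene YMR206W was at 0.879, 0.880 and 0.899, against 0.954, 0.958 and 0.964. DSE3, of the daughter cell, was at 0.944, 0.831 and 0.891, against 1.00, 1.00 and 0.959. With depth unknown, a value of exactly 1 cannot be told apart from one that rests on few reads.

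Over the 36 lower sites at an unadjusted p under 0.05, the median level was 0.805 at 6-8 h and 0.95 at 3-4 h, with a median difference of -0.140. Of the 32 with a value at 5 h, that value lay between the window means at 16. Because these sites were picked by this same contrast, their levels are a description only.

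The 8 higher sites with the smallest p are likewise given as values. TAT1, an amino acid permease gene (YBR069C, position 2117, chromosome 2, 363033, minus strand), was cut by 0.851, 0.815 and 0.879 at 6, 7 and 8 h, against 0.515 and 0.628 at 3.5 and 4 h. It had no value at any other hour, and its difference was 0.277 ± 0.0679 (limma, unadjusted p = 0.00606, adjusted p = 0.563). SNT1, a subunit of the Set3 histone deacetylase complex that represses sporulation genes (YCR033W, position 1728, chromosome 3, 203380, plus strand), was cut by 0.865, 0.865 and 0.852 at 6, 7 and 8 h, against 0.669 and 0.675 at 3.5 and 4 h. It stood at 0.937 at 5 h and 0.919 at 0 h, with no value at 1, 2 or 3 h. Among its measured hours, only 3.5 and 4 h were low. Its difference was 0.189 ± 0.0530 (limma, adjusted p = 0.616).

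ENV11 had the highest difference of the tested sites, 0.290 ± 0.0905 (YGR071C, position 2466, chromosome 7, 635617, minus strand; limma, adjusted p = 0.616). It was cut by 0.417, 0.526 and 0.687 at 6, 7 and 8 h, against 0.225 and 0.281 at 3.5 and 4 h, and by 0.577 at 2 h. Its values were thus lowest from 3.5 to 5 h, where the 5 h value was 0.270. GSC2, a glucan synthase gene used in the spore wall, was at 0.969, 0.966 and 0.993, against 0.918, 0.948 and 0.902 at 3, 3.5 and 4 h, with no overlap. YPL150W, a predicted kinase gene, was at 0.906, 0.916 and 0.965, against 0.871, 0.815 and 0.793, again with no overlap. The remaining differences of this group ended at 1.00. KRS1, lysyl-tRNA synthetase, was at 1.00 at 6 and 7 h, against 0.856 and 0.940 at 3.5 and 4 h. NAT1, a subunit of the N-terminal acetyltransferase A, was at 1.00 at 6 and 7 h, against 0.971, 0.957 and 0.962. RMD1, named for a need in meiotic nuclear division, was at 1.00 at 7 and 8 h, against 0.932 and 0.944 at 3.5 and 4 h.

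**Figure D3:**
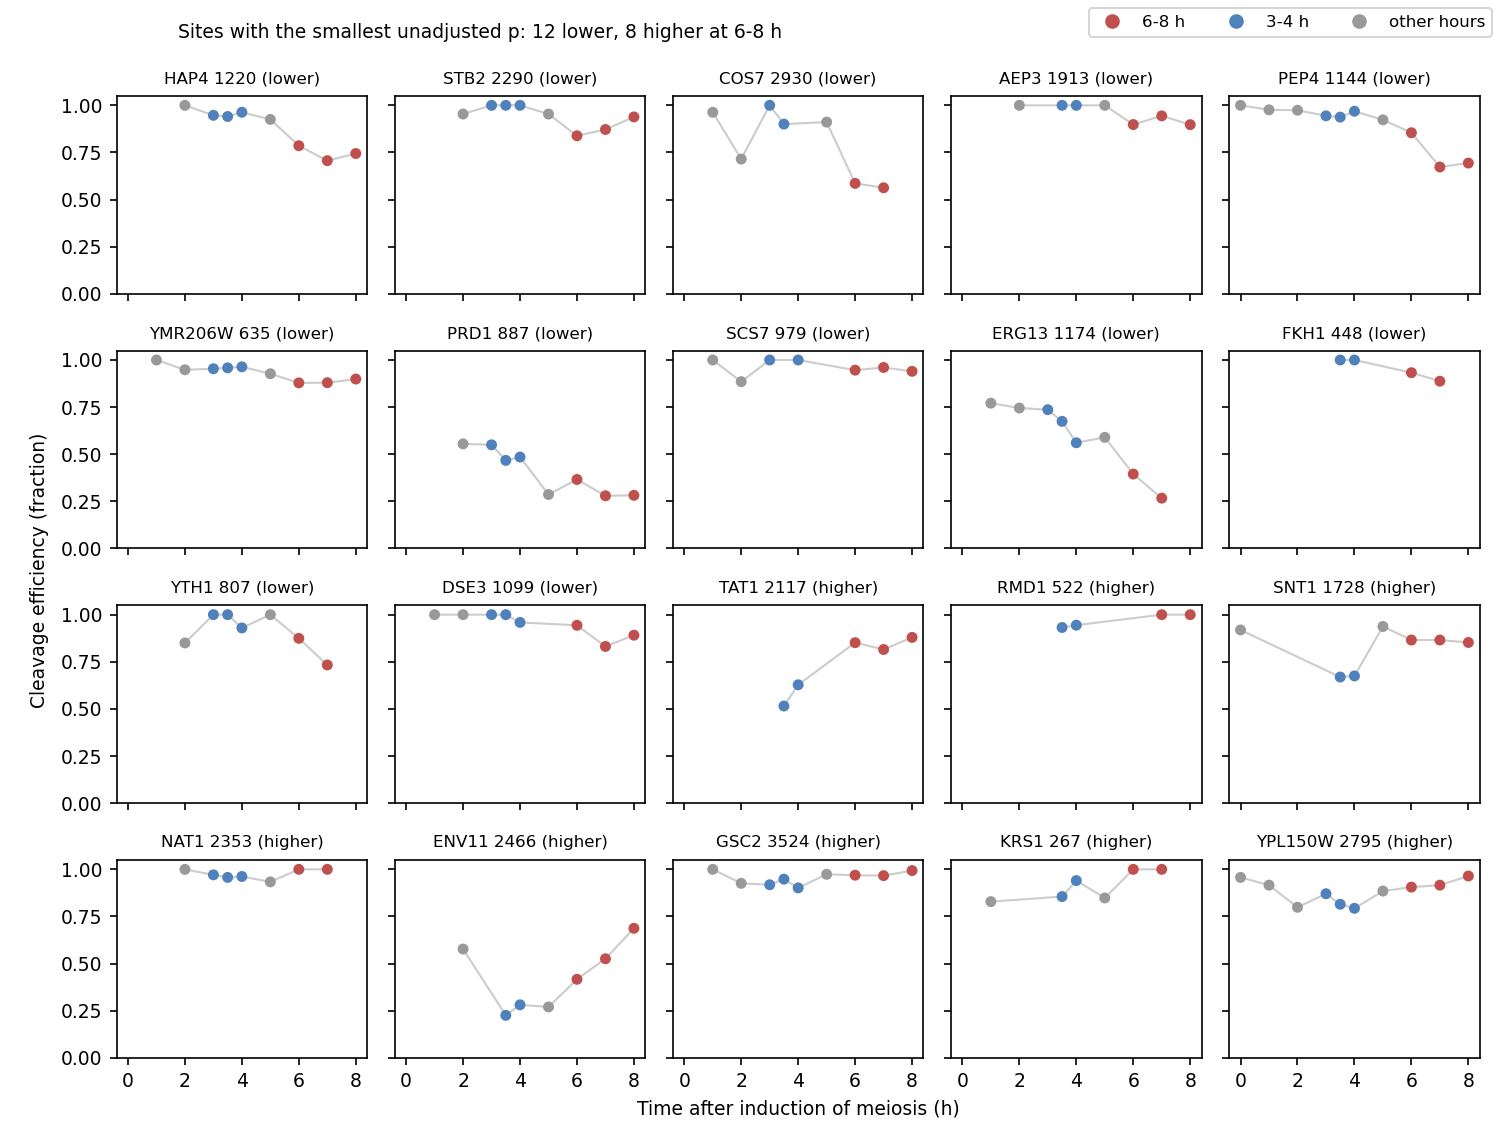
Cleavage efficiency (fraction, vertical axis) by hour after induction (horizontal axis) for the 12 lower and 8 higher sites with the smallest unadjusted p, 1 point per library and no point where the table has no value. HAP4 and PEP4 1144 stay above 0.9 to 5 h and are lower from 6 h; ENV11 is lowest from 3.5 to 5 h.

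Sites whose later values all lay on 1 side of the earlier ones were counted among the 508 with 6 values. At 40 of them (7.87%) all 3 later values were below all 3 earlier ones, and at 10 (1.97%) they were above. The sites of HAP4 (1220), PEP4 (1144), PRD1, STB2, DSE3 and YMR206W were among the lower ones, and those of GSC2 and YPL150W among the higher ones.

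The genes of meiosis come next. Of 26 sites in recombination and synapsis genes of early meiosis, 18 were tested, and 0 passed in either direction (limma, with 1 lower and 0 higher under an unadjusted p of 0.05). The difference was negative at 12 of the 18, with a median of -0.0201, against 57.6% negative and a median of -0.00987 over all tested sites. Of its 17 sites with 6 values, 2 did not overlap, both lower. Over all sites the shares were 4.92% for an unadjusted lower call and 7.87% for lower values with no overlap, and the list lay near both. The site in MEI5, whose protein assists Dmc1, the recombinase of meiosis (position 441), was cut by 0.897, 0.843 and 0.876 at 6, 7 and 8 h, against 1.00, 0.922 and 0.921 at 3, 3.5 and 4 h. Its windows did not overlap, and its difference was -0.0759 ± 0.0314 (limma, adjusted p = 0.691). HFM1, also called MER3, encodes a helicase of crossover formation. Its site at position 3888 was cut by 0.449 and 0.375 at 6 and 7 h, against 0.590 and 0.634 at 3.5 and 4 h. The site at 3881, 7 bases upstream, was cut by 0.908, 0.925 and 0.915 at 6, 7 and 8 h, against 0.902, 0.934 and 0.908 at 3, 3.5 and 4 h, so that the low value of the first was not shared. The gap between the 2 HFM1 sites was -0.504 at 6-8 h and -0.309 at 3-4 h, a difference of -0.195 ± 0.0849 (limma over pairs, adjusted p = 0.616). As the counting of cut and uncut reads is not given, it is unknown whether sites this close are read independently. In PCH2, the ATPase gene of the recombination checkpoint, position 1670 was cut by 0.426, 0.252 and 0.295 at 6, 7 and 8 h, against 0.424, 0.490 and 0.430 at 3, 3.5 and 4 h. Only its 7 h and 8 h values lay below the earlier window, and it stood at 0.431 at 5 h and 0.686 at 1 h.

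The second site of this list with no overlap was in SPO22 (position 2665), also called ZIP4, of the synapsis initiation complex. It was cut by 0.735, 0.762 and 0.692 at 6, 7 and 8 h, against 0.913, 0.843 and 0.764 at 3, 3.5 and 4 h (limma, adjusted p = 0.726). SAE3, the partner of MEI5, was at 0.251, 0.278 and 0.434, against 0.474, 0.325 and 0.315, with windows that overlapped. In HOP2, of homolog pairing, position 920 was at 0.638, 0.511 and 0.674, against 0.729, 0.663 and 0.711, while position 852 was hardly cut in the 6 libraries, with values from 0.00998 to 0.0230. SPO22, SAE3 and HOP2 were named after their values were seen.

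Among genes of the writer complex and the reader of the mark, the sites in VIR1 and PHO92 were cut almost fully in both windows. Of the methylation genes listed (IME4, MUM2, SLZ1, KAR4, VIR1, DYN2 and PHO92), VIR1 and PHO92 had a site in the table. With limma, 0 of these sites passed and 0 had an unadjusted p under 0.05. VIR1 (position 1794) was at 1.00 at 6, 7 and 8 h, against 1.00, 0.979 and 0.958 at 3, 3.5 and 4 h. PHO92 (position 228) was at 0.980, 0.980 and 1.00, against 0.996, 0.981 and 0.992. The 95% interval of the difference was -0.00669 to 0.0487 in VIR1 and -0.0255 to 0.0199 in PHO92. Both were narrower than the median interval over all tested sites, which reached 0.121 to each side. The values of both sites lay close to the upper limit of 1, and the prior variance of the fit follows the mean. The part of these in the narrow intervals was not tested.

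Among regulators of meiotic entry, 3 sites were tested and 0 passed (limma, with 0 under an unadjusted p of 0.05). The list's median difference was -0.00834. RIM4, which encodes an RNA-binding protein that holds back translation, was at 0.640, 0.549 and 0.550 at 6, 7 and 8 h, against 0.659, 0.594 and 0.511 at 3, 3.5 and 4 h. Its values at 1 h and 2 h, 0.862 and 0.788, were the highest it had. RIM11, a kinase of the entry pathway, was at 0.746, 0.766 and 1.00, against 0.938, 0.891 and 0.864, and the 8 h value stood apart from the 6 h and 7 h ones. RIM15, a kinase of nutrient signalling, was at 0.786 and 0.771 at 6 and 7 h, against 0.746 and 0.767 at 3.5 and 4 h.

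Of 5 sites in NDT80 and its middle sporulation targets, 3 were tested and 0 passed (limma, with 0 under an unadjusted p of 0.05), with a median difference of 0.0721. The site in NDT80 (position 1858) was at 0.868, 0.872 and 0.930 at 6, 7 and 8 h, against 0.954, 0.854 and 0.925 at 3, 3.5 and 4 h. Which stretch of NDT80 the disruption removed is not given, and the site is no check of the genotype. SPO24, a short gene named for sporulation (position 394), was at 0.287, 0.347 and 0.413 at 6, 7 and 8 h, against 0.313, 0.257 and 0.261 at 3, 3.5 and 4 h. At 0, 1 and 2 h it had been cut by 0.985, 0.743 and 0.551, so its values were lower at each of these hours in turn and were first under 0.5 at 3 h. DIT1, a spore wall gene, was at 0.407, 0.585 and 0.842, against 0.521 and 0.450 at 3 and 3.5 h. The later hours of DIT1 spanned more than the gap between windows, and its difference was 0.126 ± 0.132 (limma, adjusted p = 0.885).

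Genes of DNA replication and repair had 31 sites, of which 16 were tested and 0 passed (limma, with 0 under an unadjusted p of 0.05). The difference was negative at 8 of the 16, with a median of -0.00323. MCM3, of the replicative helicase, was at 0.506 and 0.522 at 6 and 7 h, against 0.779, 0.639 and 0.659 at 3, 3.5 and 4 h. POL3, the catalytic subunit of DNA polymerase delta, was at 0.577, 0.758 and 0.564, against 0.736, 0.948 and 0.726. RNR1, of ribonucleotide reductase, was at 0.853 and 0.751 at 6 and 7 h, against 0.897, 0.897 and 0.880. MCM3 and RNR1 had no value at 8 h. Of the cohesin, condensin and kinetochore list 5 sites were tested and 0 passed (limma, with 0 under an unadjusted p of 0.05), with a median of 0.00455. ESP1, the separase gene, was at 0.430, 0.703 and 0.649, against 0.393 and 0.394 at 3.5 and 4 h, and the cohesin loader SCC2 at 0.870, 0.858 and 0.960, against 0.856, 0.781 and 0.827. SMC1, of the cohesin ring, was at 0.378 and 0.469 at 6 and 7 h, against 0.475, 0.454 and 0.501.

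Of 9 tested sites in histone and chromatin genes, 0 passed (limma, with 0 under an unadjusted p of 0.05), 3 were negative and the median was 0.0188. CAC2, of the chromatin assembly factor, was at 0.603 and 0.436 at 6 and 7 h, against 0.762, 0.606 and 0.736 at 3, 3.5 and 4 h. Its partner MSI1 was at 0.939, 0.987 and 0.882, against 0.925, 0.904 and 0.923. HTA1, a histone H2A gene with a near-identical copy, was hardly cut, at 0.157, 0.0848 and 0.0478, against 0.0981, 0.0349 and 0.0299. It was already low at 0, 1 and 2 h, at 0.0202, 0.0930 and 0.0261, and why was not tested.

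Metabolic genes follow. Of 18 tested sites in gluconeogenesis, the glyoxylate cycle and acetate use, 0 passed (limma, with 1 lower and 0 higher under an unadjusted p of 0.05), with a median of -0.00595. The share lower at that p was 4.92% over all tested sites. ACH1, a mitochondrial acetyl-CoA hydrolase gene, had a lower window mean at 6-8 h at both of its sites. Position 154 was at 0.429 and 0.436 at 6 and 7 h, against 0.697, 0.571 and 0.631 at 3, 3.5 and 4 h, and position 1274 at 0.840, 0.710 and 0.826, against 0.895, 0.847 and 0.880. In MDH2, cytosolic malate dehydrogenase, the sites differed in sign. Position 1506 was at 0.737, 0.730 and 0.772, against 0.828, 0.783 and 0.785, and position 791, named after its values were seen, at 0.807, 0.787 and 0.839, against 0.782, 0.760 and 0.772. Neither MDH2 site overlapped between windows, and their differences of -0.0522 and 0.0393 had standard errors of 0.0477 and 0.0449. Over all sites with 6 values, 7.87% were lower and 1.97% higher with no overlap.

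Of 12 tested sites of respiration, 0 passed (limma, with 2 lower and 0 higher under an unadjusted p of 0.05), 8 were negative and the median was -0.0198. Over all tested sites, 4.92% were lower and 1.92% higher at that unadjusted p, and 57.6% were negative. The 3 lowest differences were in both HAP4 sites and in CYC7, an isoform of cytochrome c, which was cut by 0.664, 0.627 and 0.719 at 6, 7 and 8 h, against 0.847, 0.782 and 0.840 at 3, 3.5 and 4 h. The 5 h value of CYC7, 0.710, lay with the later window, and its difference was -0.153 ± 0.0544 (limma, adjusted p = 0.628).

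Of 7 tested sites of glycolysis and fermentation, 0 passed (limma, with 0 under an unadjusted p of 0.05), with a median of -0.0296. The enolase gene ENO2 was at 0.847, 0.436 and 0.769 at 6, 7 and 8 h, against 0.807, 0.805 and 0.824 at 3, 3.5 and 4 h. The pyruvate kinase gene CDC19 was at 0.939, 0.563 and 0.663, against 0.845, 0.801 and 0.853. In both genes the 6 h value was above the whole earlier window and the 7 h value below it, so the standard errors, 0.106 and 0.0958, were wide. PGK1, phosphoglycerate kinase, was cut little, at 0.142, 0.129 and 0.189, against 0.149, 0.124 and 0.0804. It was already low at 0, 1 and 2 h, at 0.243, 0.196 and 0.167.

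Of 30 tested sites in sterol, lipid and inositol synthesis, 22 were negative and 0 passed (limma, with 1 lower and 0 higher under an unadjusted p of 0.05). The median was -0.0188, and 3 of the 26 sites with 6 values did not overlap, all lower. Over all sites, 57.6% were negative, 4.92% were lower at that unadjusted p and 7.87% were lower with no overlap. Beside ERG13, the fatty acyl-CoA synthetase gene FAA1 (position 2201) was at 0.331, 0.262 and 0.478 at 6, 7 and 8 h, against 0.488, 0.475 and 0.482 at 3, 3.5 and 4 h. Its 8 h value lay inside the earlier window. HMG2, an HMG-CoA reductase gene (position 491), was at 0.641, 0.604 and 0.777, against 0.823, 0.727 and 0.841.

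Of 26 tested sites in proteasome and ubiquitin genes, 17 were negative and 0 passed (limma, with 0 under an unadjusted p of 0.05), with a median of -0.0165. BLM10, a proteasome activator gene (position 3551), was at 0.303 and 0.261 at 6 and 7 h, against 0.521, 0.472 and 0.327 at 3, 3.5 and 4 h. RPN9, of the proteasome lid, was at 0.593, 0.623 and 0.641, against 0.733, 0.743 and 0.701, with no overlap (difference -0.106 ± 0.0555, limma, adjusted p = 0.726). UBP14, a ubiquitin protease gene, was at 0.851 and 0.508 at 6 and 8 h, against 0.941, 0.823 and 0.903.

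Of 14 tested sites of the vacuole and autophagy, 6 were negative and 0 passed (limma, with 2 lower and 0 higher under an unadjusted p of 0.05), with a median of 0.00284. The shares over all tested sites were 4.92% lower and 1.92% higher at that p, with 57.6% negative. The aminopeptidase gene APE2 (position 1582) was at 0.903, 0.965 and 0.964 at 6, 7 and 8 h, against 0.995, 0.984 and 0.994 at 3, 3.5 and 4 h. ATG1, the kinase that starts autophagy, was at 0.974, 0.933 and 1.00, against 0.956 and 0.871 at 3.5 and 4 h. Of 9 tested sites of heat shock and general stress, 6 were negative and 0 passed (limma, with 1 lower and 0 higher under an unadjusted p of 0.05), with a median of -0.0294. The share over all tested sites was 4.92% lower. TMA10, a small ribosome-associated protein gene, was at 0.927, 0.873 and 0.915, against 0.978, 0.957 and 0.968. The glycogen debranching enzyme gene GDB1 was at 0.822, 0.843 and 0.763, against 0.874, 0.897 and 0.873, and neither gene overlapped between windows. Over all sites with 6 values, 7.87% were lower with no overlap. The polyubiquitin gene UBI4 was at 0.757, 0.763 and 0.796, against 0.845, 0.791 and 0.911.

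Of 25 tested sites of the cell wall and glycosylation, 14 were negative and 0 passed (limma, with 2 lower and 1 higher under an unadjusted p of 0.05), with a median of -0.00780. These counts lay near the shares over all tested sites, 57.6% negative, 4.92% lower and 1.92% higher. KTR4, a mannosyltransferase gene (position 1548), was at 0.376 and 0.344 at 6 and 7 h, against 0.736, 0.461 and 0.649 at 3, 3.5 and 4 h. DSE3 and GSC2, given above, belong to this list. Of 11 tested sites in nutrient signalling, 7 were negative and 0 passed (limma, with 2 lower and 0 higher under an unadjusted p of 0.05). The list's median was -0.0207, and 3 of its 8 sites with 6 values did not overlap, all lower. The shares over all sites were 4.92% for an unadjusted lower call and 7.87% for lower values with no overlap. CDC25, which activates Ras, was at 0.616, 0.535 and 0.556 at 6, 7 and 8 h, against 0.777, 0.735 and 0.636 at 3, 3.5 and 4 h, and the kinase gene NNK1 at 0.938, 0.871 and 0.876, against 0.973, 0.954 and 0.952. The windows of CDC25 and NNK1 did not overlap.

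Of 7 tested sites in translation factors, 0 passed (limma, with 1 lower and 0 higher under an unadjusted p of 0.05), with a median of -0.00315. Over all tested sites, 4.92% were lower at that p. They include EFT1 and EFT2, near-identical copies with the same difference, which cannot be counted as independent. DBP1, an RNA helicase gene, was at 0.984, 0.961 and 0.939 at 6, 7 and 8 h, against 0.993, 1.00 and 0.994 at 3, 3.5 and 4 h, with no overlap. TIF3, which encodes eIF4B, was at 0.599, 0.751 and 0.737, against 0.880, 0.694 and 0.764, and TIF4631, which encodes eIF4G (position 2621), at 0.939, 0.918 and 0.80, against 0.801, 0.951 and 0.80. Of 3 tested sites in ribosomal proteins and ribosome biogenesis, 0 passed (limma, with 0 under an unadjusted p of 0.05), with a median of -0.00504. FHL1, a regulator of these genes, was at 0.826, 0.865 and 1.00, against 0.984, 0.941 and 0.866. RPS16A and RPL20B have near-identical copies, and their values are uncertain for that reason. RPS16A was at 0.911 and 0.795 at 6 and 7 h, against 0.817, 0.802 and 0.955, and RPL20B at 1.00 and 0.741, against 0.787, 0.655 and 0.761.

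The list for cells outside meiosis had 2 tested sites, and 0 passed (limma, with 0 under an unadjusted p of 0.05). PMA1, the plasma membrane proton pump of growing cells, was at 0.577 and 0.771 at 6 and 7 h, against 0.903, 0.737 and 0.817 at 3, 3.5 and 4 h, and was lowest at 5 h with 0.398. STE4, of the mating pathway, was at 0.955, 1.00 and 0.988, against 1.00 and 1.00 at 3 and 3.5 h. A fraction per site gives no expression level, so the share of cells outside meiosis cannot be read from these values.

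**Figure D4:**
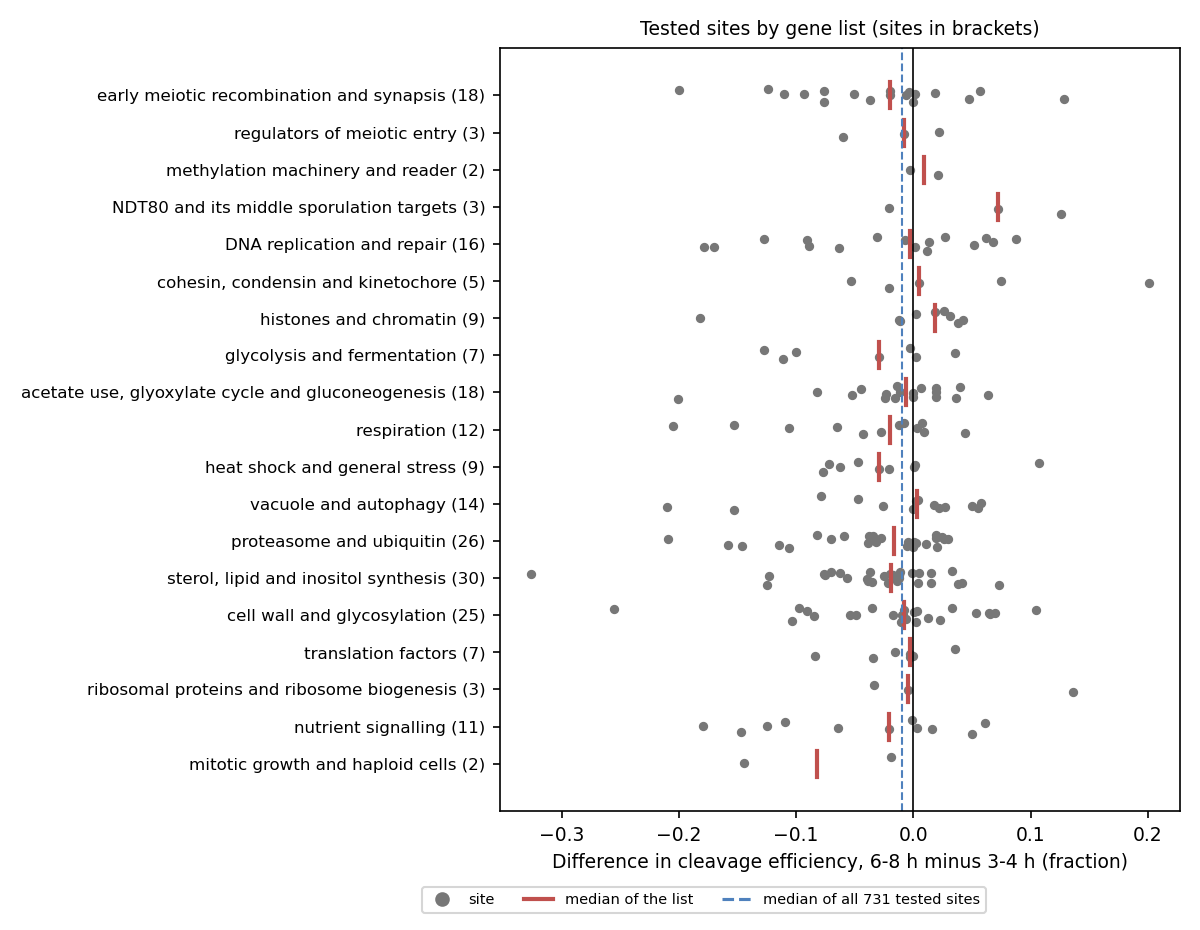
Difference in cleavage efficiency, 6-8 h minus 3-4 h (fraction, horizontal axis), for each tested site of 19 gene lists (vertical axis, with the number of sites). Red lines are list medians and the dashed line is the median of all 731 tested sites, -0.00987; no site passed in any list.

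Sites of 1 gene share their RNA, so the gap between neighbouring sites was compared as well. Of 84 neighbouring pairs, 0 changed their gap between the windows past the threshold (0%; limma on the downstream minus the upstream site, adjusted over the 84 pairs, lowest adjusted p = 0.449), and 4 had an unadjusted p under 0.05. Both sites were lower at 6-8 h in 34 pairs, both higher in 13, and they differed in sign or were at zero in the others. The pair with the smallest p was in PEP4, 290 bases apart. Its upstream site at 1144 is given above, and the downstream site at 1434 was cut by 0.877, 0.878 and 0.863 at 6, 7 and 8 h, against 0.840, 0.883 and 0.883 at 3, 3.5 and 4 h. The gap was 0.132 at 6-8 h and -0.0813 at 3-4 h, a difference of 0.214 ± 0.0635 (limma, adjusted p = 0.449).

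STS1, which is needed to bring proteasomes into the nucleus, had the lowest difference in gap. Its site at 724 was cut by 0.946 and 1.00 at 6 and 8 h, against 0.911, 0.962 and 0.903 at 3, 3.5 and 4 h, while position 923, 199 bases further, was cut by 0.361 and 0.604 at 6 and 8 h, against 0.766 and 0.80 at 3.5 and 4 h. The gap was -0.491 at 6-8 h and -0.150 at 3-4 h, a difference of -0.341 ± 0.0992 (limma, adjusted p = 0.449). In KTR4 the upstream site at 509 was level, at 0.786, 0.875 and 0.669, against 0.729, 0.819 and 0.775, while position 1548 was lower, as given above. The difference in gap was -0.311 ± 0.113 (limma, adjusted p = 0.616).

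The level of a site at 5 h, a library outside the comparison, gave a view of where the differences lay. The 92 sites cut by less than 0.5 at 5 h had a median difference of -0.0187, and the 178 between 0.5 and 0.8 had -0.0291. The 325 sites between 0.8 and 0.95 had a median of -0.00822, and the 97 at 0.95 or more had -0.00280. The middle 50% of sites spanned -0.0970 to 0.0383 in the lowest class and -0.0328 to 0.0159 in the highest. Negative differences made up 58.7%, 61.2%, 56.9% and 54.6% of the 4 classes, from the lowest to the highest. At 86 sites every value of both windows was 0.9 or more, and at 21 every value was under 0.3. By position, the median was -0.0203 over 89 sites numbered under 500, -0.00834 over 197 sites from 500 to 1000, -0.0157 over 229 from 1000 to 2000 and -0.000200 over 216 beyond. Across the 731 sites Spearman's rho between position and difference was 0.113, a description only, since sites share libraries and genes.

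The 453 sites left out lacked values mainly in the later window, where 426 had fewer than 2 values, while 46 had fewer than 2 at 3-4 h and 19 lacked both. At 6 h, 332 of the sites left out had a value, with a median of 0.814, against 0.831 over 722 tested sites. At 3.5 h the medians were 0.838 over 441 sites left out and 0.853 over 730 tested ones. The comparison therefore covers the sites that still had values late in the arrest.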

How the data were processed

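PolyA RNA from a meiotic time course was treated with MazF, per the file headers, and the authors deposited a cleavage efficiency per site as a fraction from 0 to 1. STAR 2.5.3a and bedtools 2.26.0 are named in the submitters' processing notes. The genome build, the coverage minimum, the rule for missing values and the counting of cut and uncut reads were not given in the sources used here, so depth is unknown. The hour in a column's name gave its sample, and 4 columns whose names match no label were not used, so the controls were not analysed here. Of 1198 rows, 14 repeats of a position were removed. Gene names came from R64 (999 of 1010 identifiers matched). As only 24 sites start an ACA there as listed (29 at the best shift of up to 2 bases), coordinates are printed as deposited, with no sequence.

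The windows were compared across all sites with limma 3.58.1 in R 4.3.3, on the fraction, with a prior variance that follows the mean, and adjusted by Benjamini-Hochberg at 0.05. The fit used the 6 libraries. Sites with 4 or 5 values entered with those values, with none imputed. Library medians were compared by exact permutation in SciPy 1.17.1 under Python 3.11.15. The step was also run on simulated data, as a check of the fit only. These values were drawn without the ceiling at 1 that the real ones have, so they are no measure of power here. Named sites are the 12 lower and 8 higher ones of the smallest p, up to 3 per list, every tested site of the methylation and entry lists and of NDT80, and the 3 pairs of the smallest p; others are said to be named later, apart from HFM1 3881, which is set beside 3888, and 1 site that the rule names is not reported here. The comparison and the 19 gene lists were chosen with earlier results of these data known, so no list was tested as a set.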

Additional observations from a re-analysis of the deposited data

How the results depend on the processing

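No site passed under any of the 18 alternatives, nor did any of the 74 named sites, with 508 to 1061 sites tested. These were the logit and arcsine scales, libraries shifted to 1 median, other variance models, all 10 libraries in 4 windows, filters on missing, low and exactly-1 values, other late windows and leaving out each library. The lowest adjusted p in any of them was 0.167, without the 8 h library. Sites at an unadjusted p under 0.05 numbered 21 without the 3.5 h library, 30 without 4 h and 81 with 1 value a side, against 50 in the comparison as reported. With libraries shifted to 1 median, 24 were lower and 25 higher, 49.0% of sites had a negative difference and the median difference was 0.00177. On the fraction scale, the median difference ran from -0.0176 without 3.5 h to 0.00204 without 6 h, which is the same fit as taking 7 and 8 h as the later window. It was -0.0981 on the logit scale and -0.0161 on the arcsine scale, in those units. The difference of library medians ran from -0.0201 without 8 h to -0.000251 without 6 h. Of 1183 values of named sites under these alternatives, 24 changed sign, at 9 sites. The fit without 6 h, with 53 values and 3 sign changes, is counted under both of its names. This holds for the 1183 values, the 24 sign changes and the 18 alternatives. No pair passed on the logit scale or without any 1 library. No paired analysis was possible because the windows share no replicate numbers in the labels, and the controls that do were not analysed here.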
